A study of Mus musculus with 6 samples.

Results

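A set of 10 genes of retinal ganglion cells was followed in mouse retina with a conditional knockout of Atrx, a chromatin remodeller: the transcription factors Pou4f1, Pou4f2, Pou4f3 and Isl2, the RNA-binding protein Rbpms, the synuclein Sncg, the surface glycoprotein Thy1, and the neurofilament subunits Nefl, Nefm and Nefh. They were chosen by name, as probe sets annotated with exactly 1 of these symbols. Of the 10 genes, 9 had such a probe set, 1 each, and Pou4f2 had none in the annotation used here. These 9 are among 15619 genes tested. All 9 passed the brightness filter, a log2 value of at least 5, on all 6 arrays.

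The samples were whole retinas of male mice at postnatal day 17, when, by the series' design text, loss of amacrine and horizontal cells in the mutants is at its height. There were 3 Atrx conditional knockout retinas (Chx10Cre+/-;Atrx flox/y) and 3 wildtype littermate retinas (Chx10Cre-/-;Atrx flox/y), each pooled from both eyes of a mouse, with 100 ng of total RNA labelled for an Affymetrix mouse gene array. The controls thus carry the floxed allele too, and every knockout but no control carries Cre, so the effect of Cre and that of losing Atrx cannot be told apart. Chx10 regulatory sequences act in retinal progenitors and later in bipolar cells, and ganglion cells arise from those progenitors. In bulk tissue, fewer cells of a type and less RNA per cell cannot be told apart.

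Ganglion cells are the only retinal neurons whose axons leave the eye, forming the optic nerve. The POU4 (Brn3) factors and the LIM homeodomain factor Isl2 act in ganglion cell differentiation, axon growth and the choice of ganglion cell type. Rbpms, Sncg and Thy1 are used as general markers of these cells in rodent retina. Neurofilaments are heteropolymers of a light (Nefl), a medium (Nefm) and a heavy (Nefh) subunit that set the calibre of large axons. Their expression is wider than ganglion cells, since horizontal cells of the mammalian retina also contain them.

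RefSeq promoter sequences (build GRCm38.p6) were at hand for 4 of the 10 genes: Pou4f1, Pou4f2, Isl2 and Sncg. The 250 bases before the start are shown for the 3 of them that were measured, as the identity of the genes described next, 5′ to 3′ on the strand of each gene. Pou4f1 is at chr14:104468000-104468249 (minus strand), Isl2 at chr9:55540899-55541148 (plus strand) and Sncg at chr14:34374670-34374919 (minus strand). Capitals mark a CAGCTG E-box, the kind of site that bHLH factors such as the ganglion cell determinant Atoh7 bind.
Pou4f1: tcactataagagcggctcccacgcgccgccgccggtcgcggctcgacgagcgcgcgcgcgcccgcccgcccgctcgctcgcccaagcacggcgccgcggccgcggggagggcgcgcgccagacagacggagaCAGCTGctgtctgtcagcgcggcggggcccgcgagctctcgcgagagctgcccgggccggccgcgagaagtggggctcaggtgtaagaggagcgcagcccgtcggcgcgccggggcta
Isl2: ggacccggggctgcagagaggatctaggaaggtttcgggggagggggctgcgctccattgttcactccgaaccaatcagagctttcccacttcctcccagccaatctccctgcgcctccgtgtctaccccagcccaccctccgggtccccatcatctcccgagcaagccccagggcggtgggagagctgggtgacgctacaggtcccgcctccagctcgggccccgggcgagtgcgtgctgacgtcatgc
Sncg: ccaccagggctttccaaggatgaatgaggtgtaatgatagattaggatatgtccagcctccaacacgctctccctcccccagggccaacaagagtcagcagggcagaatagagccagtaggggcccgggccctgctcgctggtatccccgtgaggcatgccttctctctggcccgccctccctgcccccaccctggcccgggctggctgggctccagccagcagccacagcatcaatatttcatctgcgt
CAGCTG stood once in the Pou4f1 window, with its first base 118 bases before the start, and not in the Isl2 or Sncg window. Of 32851 promoter windows of this length, 13.0% hold it. TAATTA, a core that homeodomain proteins can bind, is held by 4.84% of the windows, and TATAAA on either strand by 12.4%; neither was in these 3 windows. The GC content was 78.0% for Pou4f1, 66.8% for Isl2 and 61.6% for Sncg. These are descriptions of the letters only, and nothing in the arrays tests them.

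The clearest difference was in Nefh. None of the 9 measured genes passed the threshold, an adjusted p under 0.05 in limma's test over all genes, and by the same rule 0.826% of all genes tested were called (129 genes). At an unadjusted p under 0.05 there were 2 of 9, Nefm and Nefh, both lower in knockout retina, against 13.5% of all genes in either direction and 6.5% lower. That count was 1, Nefh alone, without knockout 1, knockout 3, wildtype 1 or wildtype 3, and 4 without knockout 2, where Isl2 and Sncg joined; without both knockout 2 and wildtype 1 it was 3. In 2 of 9 the knockout and wildtype values did not overlap, Nefh being lower and Sncg higher, against 20.3% of all genes (9.58% lower and 10.7% higher). With 9 genes, neither share stands clear of the whole table. The median log2 difference, knockout minus wildtype, was -0.06 over the 9 genes and 0.00 over all genes tested, and 7 of 9 were below 0, against 49.1% of all genes.

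**Figure D1:**
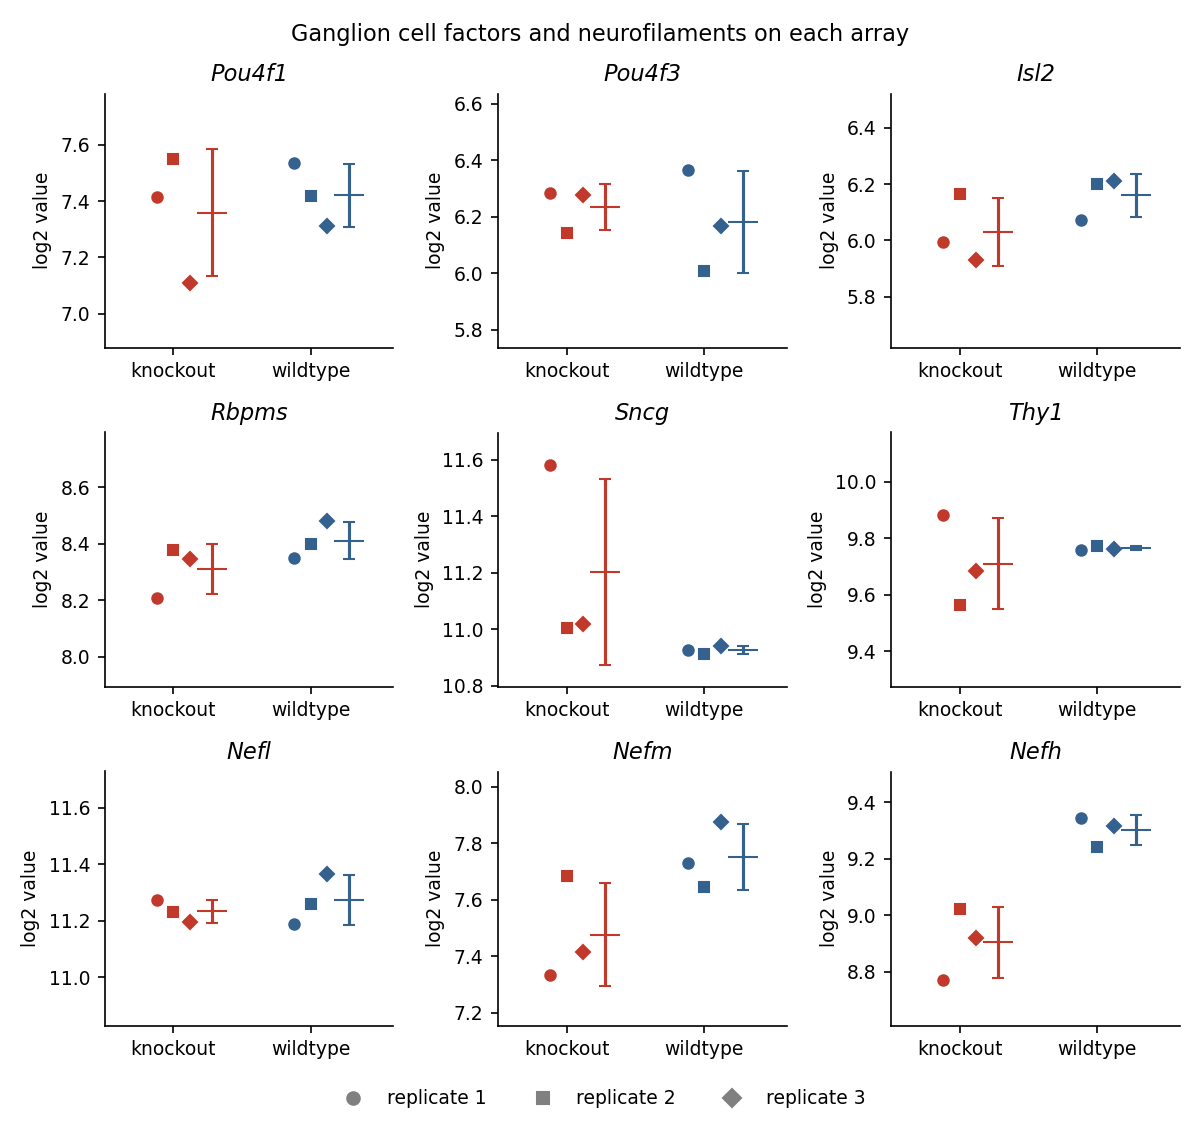
Deposited log2 values of the 9 measured genes on each array, knockout left of wildtype, 1 panel per gene with the same span of log2 units; symbols mark the replicate number, and the bar beside each group is the mean with the SD of 3 arrays. The Nefh values of knockout retinas (8.77 to 9.02) all lie under those of wildtype retinas (9.24 to 9.35), and knockout 1 stands apart in Sncg at 11.58.

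Nefh encodes the heavy neurofilament subunit, which carries the long tail rich in phosphorylation sites. Its log2 values were 8.77, 9.02 and 8.92 in knockout retinas 1, 2 and 3, against 9.35, 9.24 and 9.32 in wildtype retinas 1, 2 and 3. All 3 knockout values were lower than all 3 wildtype values, knockout 2 and wildtype 2 being the nearest pair. The means were 8.90 ± 0.13 in knockout and 9.30 ± 0.05 in wildtype retina (SD, n = 3 each), a log2 difference of -0.40 (SE 0.087, 95% interval -0.60 to -0.20), or a fold of 0.759. The adjusted p was 0.0968 in limma's test, which misses the threshold, and an exact permutation test gave p = 0.1, the lowest possible with 3 arrays in each group. With an intensity trend and robust spread in the same test the adjusted p was 0.0311, a setting under which 1.81% of all genes were called. It ran from 0.0528 to 0.321 in the other 16 alternatives.

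Nefm, the medium subunit, had log2 values of 7.33, 7.68 and 7.41 in knockout retinas, against 7.73, 7.65 and 7.88 in wildtype retinas. Knockout 1 and 3 were below all wildtype values, while knockout 2 was above wildtype 2, so the groups overlapped. The log2 difference was -0.27 (SE 0.11, 95% interval -0.53 to -0.02), with an unadjusted p of 0.0371, an adjusted p of 0.334 in limma's test and an exact permutation p of 0.2. The estimate was below 0 in all 17 alternatives, from -0.39 to -0.20, but its 95% interval included 0 in 5 of them. These were the fits without knockout 1 (unadjusted p = 0.122), knockout 3 (0.0998), wildtype 1 (0.0675) or wildtype 3 (0.129), and with the replicate number as a block (0.0577). A second probe set, named for Nefm together with the overlapping long noncoding RNA A230070E04Rik and therefore not a member, had means of 6.65 ± 0.04 in knockout and 6.49 ± 0.21 in wildtype retina, with an exact permutation p of 0.4.

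Nefl, the light subunit on which the other two assemble, had log2 values of 11.27, 11.23 and 11.19 in knockout retinas, against 11.19, 11.26 and 11.37 in wildtype retinas. The knockout values lay within the wildtype range. Between genotypes it differed by -0.04 (SE 0.078, adjusted p = 0.863 in limma's test). Its 95% interval, a fold from 0.859 to 1.10, contains neither the Nefh estimate nor the Nefm estimate. It overlaps the 95% intervals of both, so it does not by itself set the subunits apart. Without wildtype 3 the Nefl estimate was 0.01.

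The subunits were also set against each other within each array, a comparison of 3 pairs chosen after their values were seen. Nefh minus Nefl was -2.33 ± 0.15 in knockout and -1.97 ± 0.11 in wildtype retina, a log2 difference of -0.36 between genotypes. Every knockout array had a lower value than every wildtype array, and the exact permutation p was 0.1 (0.2 adjusted over the 3 pairs). Nefm minus Nefl differed by -0.24 and Nefh minus Nefm by -0.12, each with an exact permutation p of 0.2 (0.2 adjusted). With 3 arrays a group this exact test cannot go below 0.1, so it could not have passed 0.05 for any pair.

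**Figure D2:**
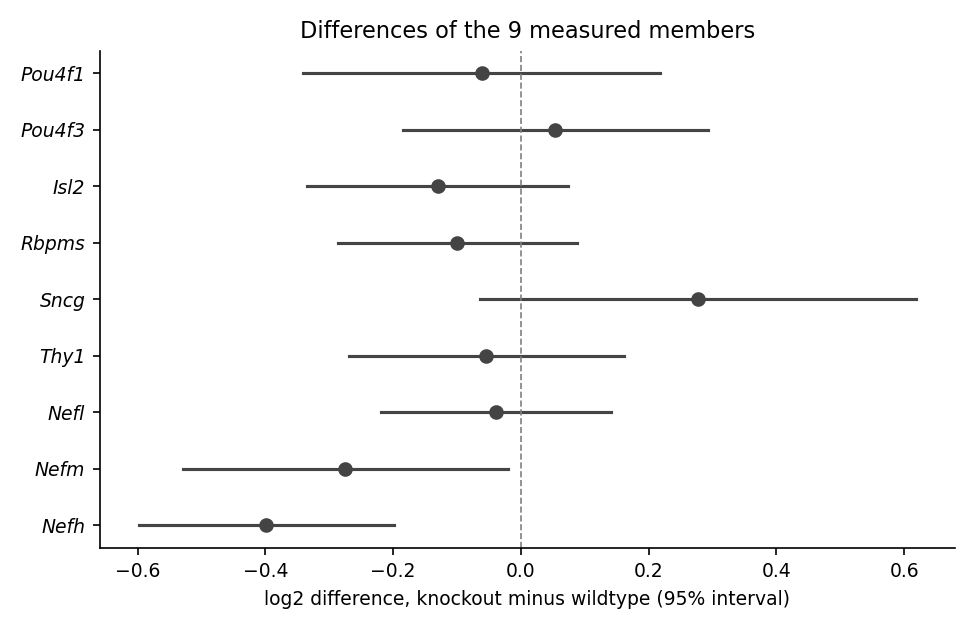
Log2 difference, knockout minus wildtype, of each of the 9 measured genes (points) with limma's 95% interval (lines); the dashed line is no difference. The intervals of Nefm and Nefh lie below 0, and those of the other 7 genes include 0.

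Among the transcription factors, Pou4f1 (Brn3a) takes part in ganglion cell type specification and dendrite form. Its log2 values were 7.41, 7.55 and 7.11 in knockout retinas, against 7.53, 7.42 and 7.31 in wildtype retinas. Knockout 3 was the lowest of the 6 and knockout 2 the highest, so the groups overlapped. Its log2 difference was -0.06 (95% interval -0.34 to 0.22, adjusted p = 0.863 in limma's test), and without knockout 3 it was 0.06. The interval as a fold, 0.790 to 1.16, states what sizes of change these arrays leave possible.

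Pou4f3 (Brn3c), a factor of a small group of ganglion cell types and of inner ear hair cells, had log2 values of 6.29, 6.14 and 6.28 in knockout retinas, against 6.37, 6.01 and 6.17 in wildtype retinas. The highest and the lowest of the 6 values were both wildtype. Between the means the log2 difference was 0.05 (95% interval -0.19 to 0.29, adjusted p = 0.857), and without wildtype 2 it was -0.03. Isl2, a factor of a subset of ganglion cells with crossed axons, had 5.99, 6.16 and 5.93 in knockout retinas, against 6.07, 6.20 and 6.21 in wildtype retinas. Knockout 1 and 3 were lowest, but knockout 2 was above wildtype 1. For Isl2 the log2 difference was -0.13 (95% interval -0.33 to 0.07, adjusted p = 0.562), below 0 in all 17 alternatives (-0.24 to -0.08).

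Rbpms, an RNA-binding protein found in nearly all ganglion cells of the rodent retina, had log2 values of 8.21, 8.38 and 8.34 in knockout retinas, against 8.35, 8.40 and 8.48 in wildtype retinas. The ranges overlapped only in that knockout 2 exceeded wildtype 1. The log2 difference was -0.10 (SE 0.081, 95% interval -0.29 to 0.09, adjusted p = 0.633 in limma's test), a fold of 0.933 with bounds of 0.820 and 1.06. It was below 0 in all 17 alternatives, from -0.16 to -0.05.

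Thy1, a GPI-anchored glycoprotein of the neuronal surface, had log2 values of 9.88, 9.57 and 9.68 in knockout retinas, against 9.76, 9.77 and 9.76 in wildtype retinas. The wildtype values were nearly equal (SD 0.01), and the knockout values lay on both sides of them (SD 0.16). Thy1 had a log2 difference of -0.05 (95% interval -0.27 to 0.16, adjusted p = 0.837). Without knockout 2 it was 0.02.

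Sncg, a small protein of the synuclein family abundant in ganglion cell bodies and axons, had log2 values of 11.58, 11.00 and 11.02 in knockout retinas, against 10.93, 10.91 and 10.94 in wildtype retinas. All 3 knockout values were higher, but knockout 2 and 3 by little, and knockout 1 stood far above the other 5. The means were 11.20 ± 0.33 in knockout and 10.93 ± 0.01 in wildtype retina, a log2 difference of 0.28 (SE 0.15, 95% interval -0.06 to 0.62). The adjusted p was 0.466 in limma's test and the exact permutation p was 0.1. Without knockout 1 the log2 difference was 0.09 (adjusted p = 0.718), so most of the estimate rests on that 1 array. Knockout 1 also had the highest Thy1 value of the 6 arrays, and the lowest Rbpms, Nefm and Nefh values.

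**Figure D3:**
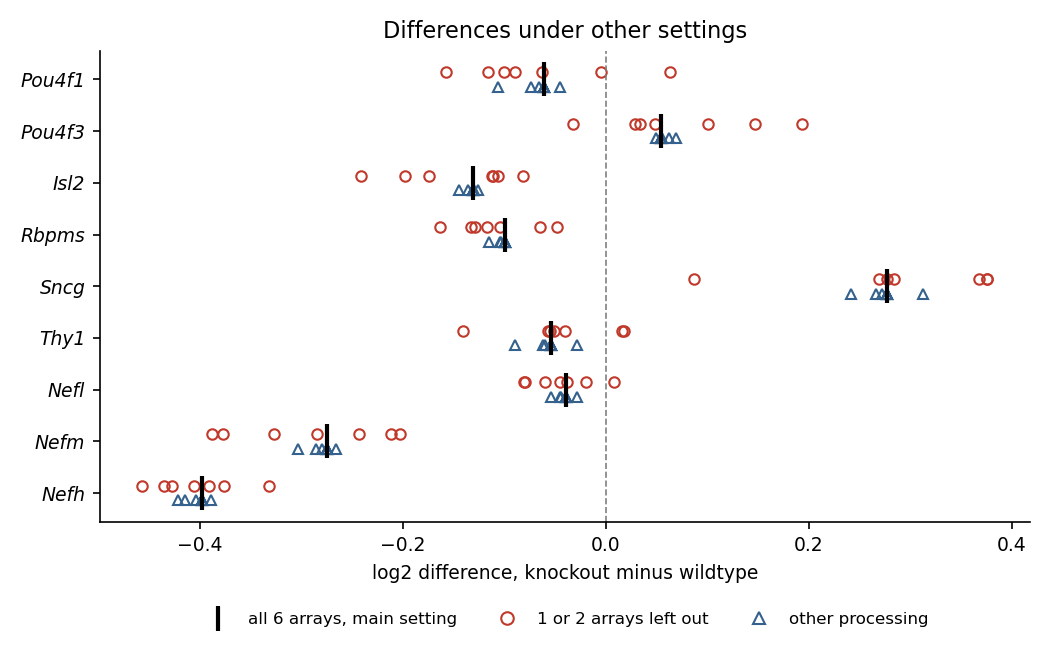
Log2 difference, knockout minus wildtype, of each gene with all 6 arrays (black bar), with 1 or 2 arrays left out (red circles, 7 settings) and under other processing (blue triangles, 10 settings). Nefm stays left of 0 under every setting shown, as does Nefh, whose groups do not overlap; Sncg moves to 0.09 without knockout 1, and Pou4f1, Pou4f3, Thy1 and Nefl cross 0.

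Of 18 further markers of ganglion cells or their types, 14 were tested and 1 was called, against 0.826% of all genes. Their median log2 difference was -0.03, and it was 0.01 without knockout 1 and -0.0021 without wildtype 2. This was Cartpt, the precursor of the CART peptide made by ON-OFF direction-selective ganglion cells in mice and also present in other retinal and brain neurons. Cartpt fell to 8.52 ± 0.19 in knockout retina, against 9.30 ± 0.08 in wildtype retina (log2 difference -0.79, adjusted p = 0.0162). It missed the threshold when wildtype 2 (adjusted p = 0.0991), wildtype 3 (0.0911) or both knockout 2 and wildtype 1 (0.0807) were left out. Jam2, an adhesion molecule that marks a type of direction-selective ganglion cell in mice and is also made by other cells such as endothelium, had 11.15 ± 0.10 and 10.67 ± 0.12 in knockout and wildtype retina (log2 difference 0.48, adjusted p = 0.0678). It passed the threshold with a log2 floor of 6 (adjusted p = 0.0341) and under an intensity trend with robust spread (0.0115).

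The nicotinic receptor subunits Chrnb3 and Chrna6 had log2 differences of -0.27 (adjusted p = 0.256) and 0.23 (adjusted p = 0.266). Named after their values were seen, Slc17a6, the vesicular glutamate transporter of ganglion cells, had a log2 difference of -0.01 (95% interval -0.19 to 0.16), and Opn4, the melanopsin of intrinsically photosensitive ganglion cells, one of -0.12 (95% interval -0.35 to 0.12). Both intervals include 0.

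Of 17 other transcription factors of ganglion cell development, 16 were tested and none was called in limma's test, with 4 at an unadjusted p under 0.05, against 13.5% of all genes. Their median log2 difference was -0.06, with 12 below 0, against 49.1% of all genes. Barhl2, a homeodomain factor of ganglion and amacrine cells, had 8.09 ± 0.01 and 8.36 ± 0.02 in knockout and wildtype retina (log2 difference -0.27, adjusted p = 0.143). Neurod1 (0.32, adjusted p = 0.188), Irx4 (-0.33, 0.207) and Ebf3 (-0.20, 0.334) had the next smallest p. Without knockout 1 the list median was -0.09, and without knockout 3 it was -0.01. The number below 0 was 9 of 16 in each of these fits, and 13 without wildtype 2.

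In the axonal cytoskeleton list all 20 genes were tested and none was called, while 14 were below 0 (49.1% of all genes) and the median log2 difference was -0.16, against 0.00 over all genes. Without knockout 1 that median was -0.10. At an unadjusted p under 0.05 there were 9, of which 8 were lower and 1 was higher in knockout (6.5% and 6.99% of all genes). That count was 4 without knockout 1 or without knockout 3, 11 without knockout 2, 5 without wildtype 1 or wildtype 2, and 3 without wildtype 3. Blocking on the replicate number gave 4, and keeping dim probe sets gave 6. Among the lower genes, Map1a, a microtubule-associated protein of mature neurons, had 7.23 ± 0.22 in knockout and 7.67 ± 0.04 in wildtype retina (log2 difference -0.45, adjusted p = 0.135). Ina, which encodes alpha-internexin and copolymerises with the neurofilament subunits, had 10.44 ± 0.05 and 10.69 ± 0.04 (-0.25, adjusted p = 0.199), with no overlap. Gap43, a growth cone protein, had a log2 difference of -0.24 (adjusted p = 0.296).

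The 1 higher gene was Prph, which encodes peripherin, an intermediate filament protein that can also assemble with neurofilaments. It had 6.27 ± 0.21 in knockout and 5.79 ± 0.04 in wildtype retina (log2 difference 0.48, 95% interval 0.22 to 0.73, adjusted p = 0.113), with no overlap. Ina and Prph, whose proteins can both assemble with neurofilaments, therefore had estimates of opposite sign, and neither was called. In the list of relatives of the 10 genes, 7 of 9 were tested and none was called. Gfap, the glial filament protein, had a log2 difference of 0.44 (adjusted p = 0.195) and Vim, vimentin, one of -0.22 (adjusted p = 0.497). The Vim value was 11.20 on wildtype 1, against 10.80 and 10.68 on wildtype 2 and 3, and from 10.65 to 10.70 in knockout retinas.

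Of 12 genes known to rise in ganglion cells after axon injury, 11 were tested and 1, Gal, was called, against 0.826% of all genes. At an unadjusted p under 0.05 there were 3, of which 2 were higher and 1 was lower in knockout, against 13.5% of all genes. Gal, which encodes galanin, a peptide of several neuron types, rose to 6.59 ± 0.17 in knockout retina, against 5.77 ± 0.24 in wildtype retina (log2 difference 0.82, adjusted p = 0.0432). It missed the threshold with any single array left out other than wildtype 1 (adjusted p from 0.0653 to 0.155). The other 10 were not called; the transcription factor Jun had a log2 difference of 0.18 (adjusted p = 0.359), the protease-like Ecel1 one of 0.07 (adjusted p = 0.724), and the median of the list was 0.02.

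**Figure D4:**
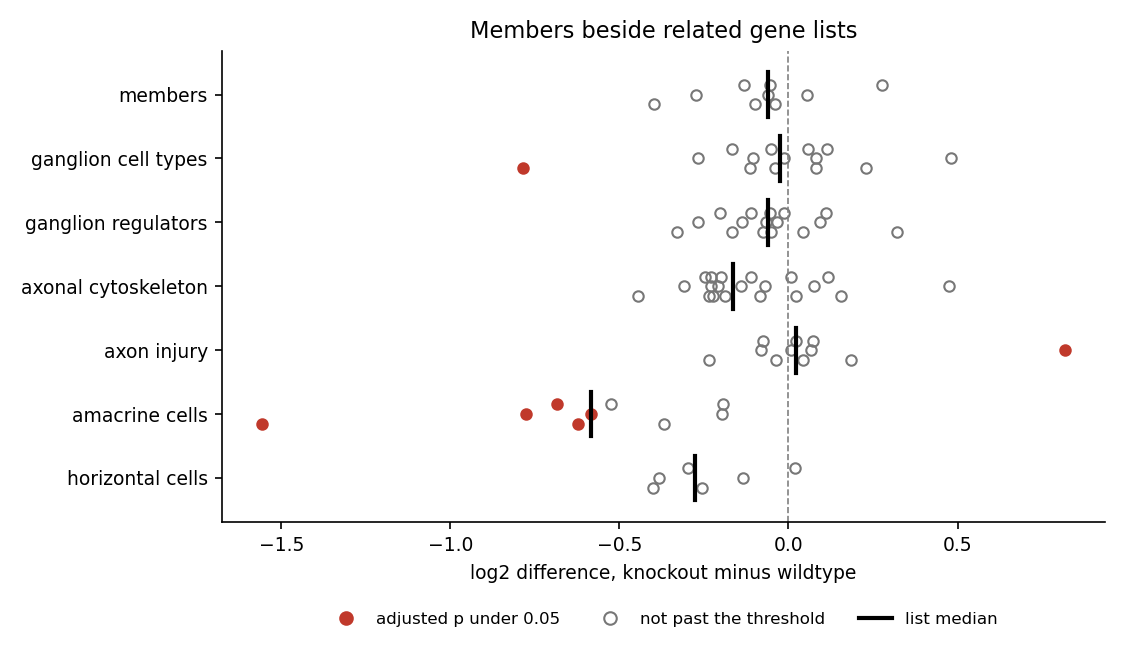
Log2 difference, knockout minus wildtype, of the 9 measured genes and of the tested genes of 6 related lists (1 point per gene; filled red, adjusted p under 0.05; black bar, list median). The medians of the 9 genes (-0.06), of both other ganglion cell lists and of the axon injury list (0.02) lie near 0. That of the axonal cytoskeleton list is -0.16, that of horizontal cell markers -0.28 and that of amacrine cell markers -0.58.

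Markers of amacrine cells differed with genotype on these arrays. The cells of the amacrine cell list lie partly in the ganglion cell layer. Of its 9 tested genes 5 were called, all lower, against 0.826% of all genes called in either direction. The median log2 difference was -0.58, with array means from 6.66 to 6.97 in knockout and from 7.36 to 7.46 in wildtype retina. The number called was 1 without knockout 1, knockout 3, wildtype 2 or wildtype 3, and 3 without wildtype 1; the median ran from -0.66 to -0.52 with single arrays left out. The horizontal cell list, whose cells share neurofilaments with ganglion cells, had no call among 6 tested genes. Its median log2 difference was -0.28, with 5 of 6 below 0, against 49.1% of all genes. At an unadjusted p under 0.05 in limma's test there were 4, all lower in knockout. Of all genes, 13.5% were under that p in either direction and 6.5% were lower. That 4 became 2 without wildtype 3 and 3 without knockout 2 or knockout 3, and a log2 floor of 6 gave 1 call. Its array means ran from 7.43 to 7.60 in knockout and from 7.72 to 7.83 in wildtype retina. The bipolar cell list had no call among 6 tested genes, with 3 below and 3 above 0 and a median log2 difference of -0.0056. At an unadjusted p under 0.05 there was 1, Prkca (log2 difference -0.38, adjusted p = 0.232 in limma's test), against 13.5% of all genes. The bipolar array means ran from 8.74 to 8.92 in knockout and from 8.88 to 8.96 in wildtype retina. The part of amacrine or horizontal cells in the Nefh and Nefm values was not tested.

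The arrays differed in carried-over tissue. Averaged over 13 lens genes, knockout 2 (9.78) and wildtype 1 (11.16) were far above the remaining 4 arrays (5.66 to 6.09). The mean of 8 pigment epithelium genes ran from 8.40 on knockout 1 to 9.60 in knockout, and from 9.05 to 9.81 in wildtype retina. Without the 2 lens-rich arrays the log2 difference of Nefh was -0.44 (adjusted p = 0.197), that of Nefm -0.39 (0.264) and that of Sncg 0.38 (0.445). Oligodendrocyte genes, which would come with optic nerve, had array means from 5.74 to 5.96 in knockout and from 5.90 to 5.95 in wildtype retina, near the brightness floor. Of the astrocyte list 5 of 6 genes were tested with no call, and Pax2 was under the floor. Array means of this list ran from 8.09 to 8.15 in knockout and from 7.90 to 8.02 in wildtype retina. At an unadjusted p under 0.05 in limma's test there were 3, all higher in knockout, against 6.99% of all genes higher. These were Gfap (log2 difference 0.44), Aqp4 (0.27) and S100b (0.20), while 1 gene of the list, Aldoc, was below 0 (-0.17). Whether carried-over tissue has a part in these values was not tested. Atrx itself was 8.42, 8.72 and 8.33 in knockout retinas, against 9.04, 8.86 and 9.17 in wildtype retinas (adjusted p = 0.115 in limma's test), without overlap.

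The genes whose pattern over the 6 arrays was most like the mean of Nefl, Nefm and Nefh were found by the root mean square difference of log2 values after each profile was centred. They were Tmem184b (0.018), Dpysl2 (0.024), Acox3 (0.027), Tcaf1 (0.028) and Slc24a1 (0.028), with log2 differences between genotypes from -0.23 to -0.19 and adjusted p-values from 0.278 to 0.329. Dpysl2, which encodes the axonal protein CRMP2, is also in the axonal cytoskeleton list, while Tmem184b, Acox3, Tcaf1 and Slc24a1 are not. For the mean of the other 6 measured genes they were Retreg1 (0.011), Mamdc2 (0.014), Fbxw5 (0.016), Parp16 (0.019) and Gtf3c6 (0.019), with log2 differences from -0.02 to 0.03. All 10 were picked for their likeness from 15619 genes over 6 arrays, and the ranking is a description of these arrays.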

How the data were processed

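The authors deposited 1 log2 value for each probe set of an Affymetrix mouse gene array, and the submitters' processing notes name RMA as the method. This method subtracts background, makes array distributions alike and combines the probes of a set. Its version is not given in the sources used here. Shifts common to all genes are removed by it, and folds of dim probe sets are compressed. Array medians ran from 5.57 to 5.64. No step was redone.

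Of 41345 probe sets, 23521 had 1 gene symbol, 1814 several and 16010 none in the platform annotation, and symbols were updated through RefSeq gene identifiers (23328 matched, GRCm38.p6). Probe sets with log2 of at least 5 on at least 3 of 6 arrays were kept, and the brightest by mean stood for its gene (15619 genes). The comparison, knockout minus wildtype, used R 4.3.3 and limma 3.58.1 (lmFit and eBayes with genotype as the only term, 2-sided, Benjamini-Hochberg over all genes). SE and intervals are limma's moderated ones, the median 95% interval reached 0.217 to each side, and the small number of arrays limits precision. Exact permutation tests used scipy 1.17.1 and figures matplotlib 3.10.9. The fit was tested on simulated data. The labels do not give the litter or batch of an array, so either may be left in the spread between arrays. The p-values of limma measure that spread, moderated over all genes, with 1 mouse per array. It also holds differences in carried-over tissue. The members, the lists and the alternatives, including leaving out the lens-rich arrays, were chosen with earlier results of these data known. The named genes are the members, Atrx, the called or up to 4 smallest-p genes of each list, and the 5 genes nearest in profile, without unnamed loci; Slc17a6, Opn4 and the genes nearest to Sncg were chosen after their values were seen. Members without a probe set are not analysed here.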

Additional observations from a re-analysis of the deposited data

How the results depend on the processing

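No member was called in 16 of 17 alternatives. With an intensity trend and robust spread 1 was (Nefh, adjusted p = 0.0311). Of 153 member estimates under the alternatives, 148 kept their direction. The 5 that did not belonged to 4 genes, none of them called under any setting. With single arrays left out, log2 differences ran from -0.157 to 0.063 for Pou4f1 (above 0 without knockout 3), from -0.033 to 0.147 for Pou4f3 (below 0 without wildtype 2), from -0.081 to 0.0079 for Nefl (above 0 without wildtype 3) and from -0.141 to 0.018 for Thy1 (above 0 without knockout 2, and 0.016 without both lens-rich arrays, knockout 2 and wildtype 1). The replicate number as a block left 0 members called (Nefh adjusted p = 0.264). Same-numbered arrays deviated from their group means with correlations from -0.38 to -0.06, and 0 of 6 arrays correlated best with its own number. The highest correlation, 0.39, was between the lens-rich arrays, knockout 2 and wildtype 1. A pairing by number was thus not seen, but with 3 arrays in each group this check cannot exclude one. The count of all genes called, 129, was 74 with no filter on dim probe sets, 209 with a log2 floor of 6, 282 with an intensity trend and robust spread, 68 with the replicate block and 36 without the lens-rich arrays; with single arrays left out it ran from 25 to 141. The 2 calls in the related lists, Cartpt and Gal, became 1 with no filter, with array weights and with the replicate block, 0 without the lens-rich arrays, and 3 with a log2 floor of 6 and with an intensity trend and robust spread, where Jam2 was also called; they ran from 0 to 2 with single arrays left out. Fits with fewer arrays or more genes also differ from the main fit in the test itself, and the causes of these shifts were not tested. Dim probe sets, such as that of Isl2, lie close to background, where array signal limits the fold that can be seen.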

Other observations

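The gene profile nearest to that of Sncg over the 6 arrays, a search made after the values were seen, was that of Cycs, which encodes cytochrome c (root mean square difference 0.047 after centring). Its log2 values were 10.87, 10.40 and 10.40 in knockout retinas, against 10.33, 10.20 and 10.30 in wildtype retinas. Pawr (0.060), Tmem223 (0.067), Ppie (0.068) and Entpd7 (0.071) came next. In each of the 5, as in Sncg, knockout 1 was the highest array, which follows from picking them for their likeness to Sncg. None of the 5 was called (adjusted p from 0.394 to 0.627 in limma's test).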
